A study of Rattus norvegicus with 8 samples.

Results

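A CpG reads the same on both strands of DNA, so each CpG site is a dyad of 2 cytosines, the C of the reference strand and the cytosine opposite the G one base further on. The dyads described here are those for which both cytosines were listed with at least 10 calls in each of 8 rat brain libraries. There were 75898 of them on chromosomes 1 to 20, or 9.97% of the 761556 CpG dyads listed on at least one strand in every library. The members were chosen by where reads fell and not by their methylation.

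Hippocampus and hypothalamus of male Sprague Dawley rats gave 4 libraries each. The rats were 2 months old when they started on food enriched in DHA (docosahexaenoic acid, a long omega-3 fat of brain membranes) and ate it for 6 weeks. All 8 libraries share this diet and chow-fed animals were not analysed here, which leaves the tissue as the contrast. The replicate numbers do not say whether a hippocampus and a hypothalamus of one number came from one rat, and nothing states that libraries within a tissue came from separate animals. The p-values from values per library therefore measure the spread between these libraries. Those of single dyads rest also on the number of calls and on a spread shared over dyads. Both tissues are mixtures of neurons and glia, and an intermediate level can stand for cells, alleles or strands that differ.

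After DNA is copied, a methylated CpG carries its mark on the old strand only. The maintenance methyltransferase DNMT1, guided by UHRF1, which binds such hemimethylated CpGs, restores the mark on the new strand, so that the strands normally match. A dyad that keeps a mark on one strand is called hemimethylated. Reduced representation bisulfite sequencing (RRBS) cuts DNA with the enzyme MspI, which recognises CCGG, and reads the fragment ends after bisulfite has turned unmethylated cytosine into uracil, read as T. Each strand is read from its own end of a fragment, so most CpGs are read on one strand only, and both strands are seen where the reads from the ends overlap or start at the same cut site. Bisulfite does not separate 5-methylcytosine from 5-hydroxymethylcytosine, which is common in brain, and a base other than C in the animal's own DNA can also be counted as an unmethylated cytosine. The level on a strand is the number of methylated calls over all calls, in percent. The strand gap is the level of the C strand minus that of the G strand, in percentage points.

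The sequences around the dyads with the most unequal strands are shown first, because several of them resemble one another. No rn5 genome was used. The letters were rebuilt from the bases and sequence contexts that the deposited rows give for each cytosine of either strand, n is a base that no row fixes, and CG in capitals is the dyad itself. Each line runs 5′ to 3′ for 42 bases of the build rn5, on the plus strand unless a minus strand is named. The first lines are the 4 dyads that were hemimethylated in all 8 libraries and did not belong to the family below.
chr2:117020626-117020667: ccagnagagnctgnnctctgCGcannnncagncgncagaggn
chr2:180905144-180905185: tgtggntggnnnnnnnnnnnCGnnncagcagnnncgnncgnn
chr2:228431725-228431766: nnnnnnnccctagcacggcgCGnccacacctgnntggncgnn
chr13:27399690-27399731: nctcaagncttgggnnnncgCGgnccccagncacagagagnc
The next 5 windows share the letters CGGNNCCTGNAGG or nearly so, and are printed on the strand that carries them. This is element A in what follows. The windows on chromosomes 17, 2 and 11 were hemimethylated in all 8 libraries.
chr13:12939884-12939925: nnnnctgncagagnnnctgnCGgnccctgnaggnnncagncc
chr17:71592729-71592770: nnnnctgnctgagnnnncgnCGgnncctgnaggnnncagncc
chr2:210216332-210216373, minus strand: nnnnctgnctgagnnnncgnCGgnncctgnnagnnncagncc
chr11:19482548-19482589, minus strand: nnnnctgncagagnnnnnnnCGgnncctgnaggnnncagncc
chr18:38739689-38739730, minus strand: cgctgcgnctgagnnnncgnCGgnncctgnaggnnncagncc
The next 3 resemble the first line, on chromosome 2, whose letters are called element D in what follows. The last of them is the dyad called for a gap that differed between the tissues.
chr1:131132020-131132061, minus strand: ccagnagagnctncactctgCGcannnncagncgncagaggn
chr14:73953980-73954021, minus strand: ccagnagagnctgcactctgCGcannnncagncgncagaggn
chr2:6876506-6876547: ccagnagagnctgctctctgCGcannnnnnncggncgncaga
The last line is the dyad with the largest called gap toward the C strand among those with one direction in all 8 libraries and at least 20 calls per strand.
chr4:244312867-244312908: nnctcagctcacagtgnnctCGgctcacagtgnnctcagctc
Aligned at the dyad, the 5 windows of element A had 20 to 23 identical letters among the 22 to 25 positions fixed in both members of a pair. The element D windows of chr2:117020646-117020647, chr1:131132040-131132041 and chr14:73954000-73954001 were identical at all 30 to 32 such positions, and chr2:6876526-6876527 matched the first at 23 of 27. The positions in the files name no genes, and no gene annotation of rn5 was used, so genes around these dyads are not named.

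Over all dyads together the strands had nearly the same mean level. The mean level over the 75898 dyads was 37.7% to 41.4% on the C strand and 37.7% to 41.3% on the G strand in the 8 libraries. The C minus G difference had a mean of -0.000267 points and ranged from -0.0351 to 0.0323 points, with 4 libraries above 0. A two-sided exact sign-flip permutation test over the 8 libraries gave p = 0.992. The difference was -0.0216 points with 20 calls per strand (exact sign-flip test, p = 0.0313) and 0.154 points with calls summed over dyads (exact sign-flip test, p = 0.0156), both small beside the level. Levels were lower than at the 685658 other shared dyads, with a mean of 39.5% against 51.0%. Of the dyads read on both strands, 33110 (43.6%) had a mean level below 5%, 37010 had 5% to 95%, and 5778 (7.61%) had more than 95%.

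Dyad by dyad, the strands also followed each other closely. The correlation between the C-strand and the G-strand level over dyads was 0.969 to 0.989 in single libraries and 0.995 for the means over 8 libraries, as a description over sites that share libraries and fragments. In each library 88.2% to 93.9% of dyads had both strands in one class (below 20%, 20% to 80%, or 80% and above). The gap averaged over the 8 libraries was under 2 points at 69.7% of dyads and under 5 points at 90.2%. It was 10 points or more at 1463 dyads (1.93%), 20 points or more at 240 and 50 points or more at 54. Its median size was 1.01 points over all dyads and 2.36 points at those with a mean level of 5% to 95%. Outside that range the level itself caps the gap at 10 points. In the map of C-strand against G-strand levels, most dyads sit at either end of the diagonal and few stand far from it.

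**Figure D1:**
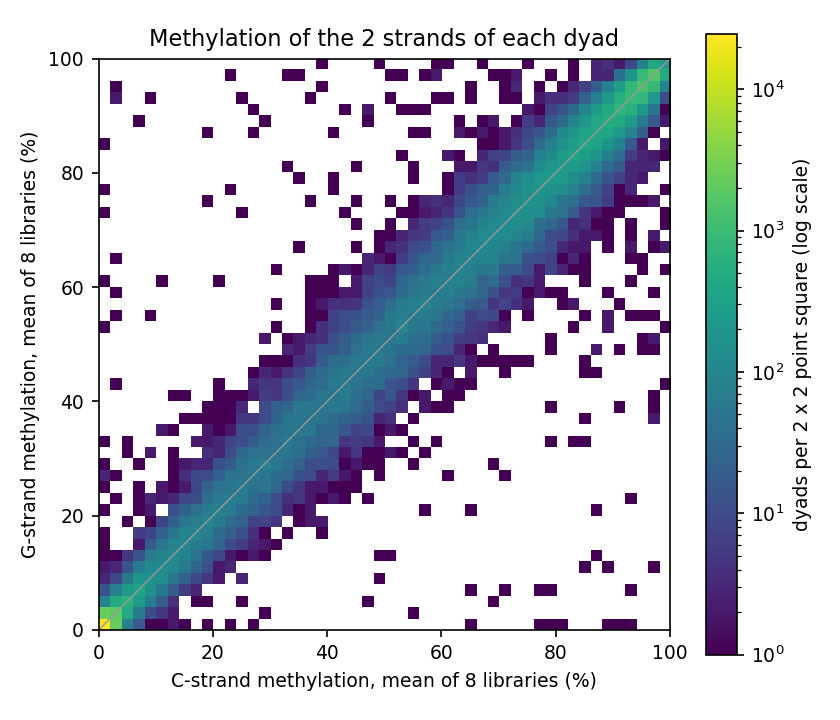
Mean methylation level of the C strand (x axis, %) against the G strand (y axis, %) over 8 libraries for 75898 dyads, coloured by the number of dyads in each square of 2 by 2 points on a log scale, with the line of equality in grey. The dyads follow the line, and 240 of them have mean gaps of 20 points or more.

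Some dyads held an intermediate level on both strands in every library. There were 23 with both strands between 40% and 60% in all 8 libraries. At chr3:161202739-161202740, one of the 2 deepest of these, hippocampus 1 to 4 had 54.7%, 47.6%, 43.3% and 51.4% on the C strand and 53.4%, 51.1%, 47.3% and 56.7% on the G strand. Hypothalamus 1 to 4 had 53.7%, 47.3%, 53.1% and 51.2% on the C strand and 56.1%, 50.7%, 44.2% and 60% on the G strand, with 32 to 107 calls per value. The values of the strands and of the tissues overlap, and the mean gap was -2.17 ± 5.29 points (SD, n = 8). At chr5:149494819-149494820 the C strand had a mean of 55.1% ± 4.41 and the G strand 53.6% ± 6.41 (SD, n = 8 each).

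The gap was larger in the 2 libraries with the fewest calls. The mean absolute gap was 3.46 to 4.04 points in the 6 libraries with a median of 66 to 85 calls per strand, 4.89 points in hypothalamus 4 (40 calls) and 6.03 points in hypothalamus 3 (19 calls). With every strand thinned at random to 10 calls, it was 7.97 ± 0.75 points in hippocampus and 7.67 ± 0.265 points in hypothalamus (SD, n = 4 each). Hypothalamus minus hippocampus was -0.297 points, within the spread of the libraries (two-sided exact permutation test over 70 assignments, p = 0.457, smallest possible p = 0.0286). The unthinned values differed by 0.938 points in the other direction, with the shallowest libraries in hypothalamus.

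A part of the gap returned in library after library. The counting error of the calls made up 62.1% to 83.6% of the mean squared gap of a library. The covariance with the other 7 libraries, which is what returns, made up 10.1% to 29.9%, and the remainder was 4.53% to 12.6%. Expressed as a standard deviation over dyads, the returning gap was 3.20 points. The stacked bars of these shares show the smallest returning share in hypothalamus 3, the shallowest library. The returning gap was as large across tissues as within them, with a standard deviation of 3.29 points among hippocampus libraries, 3.13 among hypothalamus libraries and 3.19 between libraries of different tissues. Over dyads, the gaps of pairs of libraries had correlations of 0.117 to 0.307 (mean 0.230, 28 pairs), given as a description. Without the dyads called below, which were selected for a gap that returns, the mean was 0.0708.

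**Figure D2:**
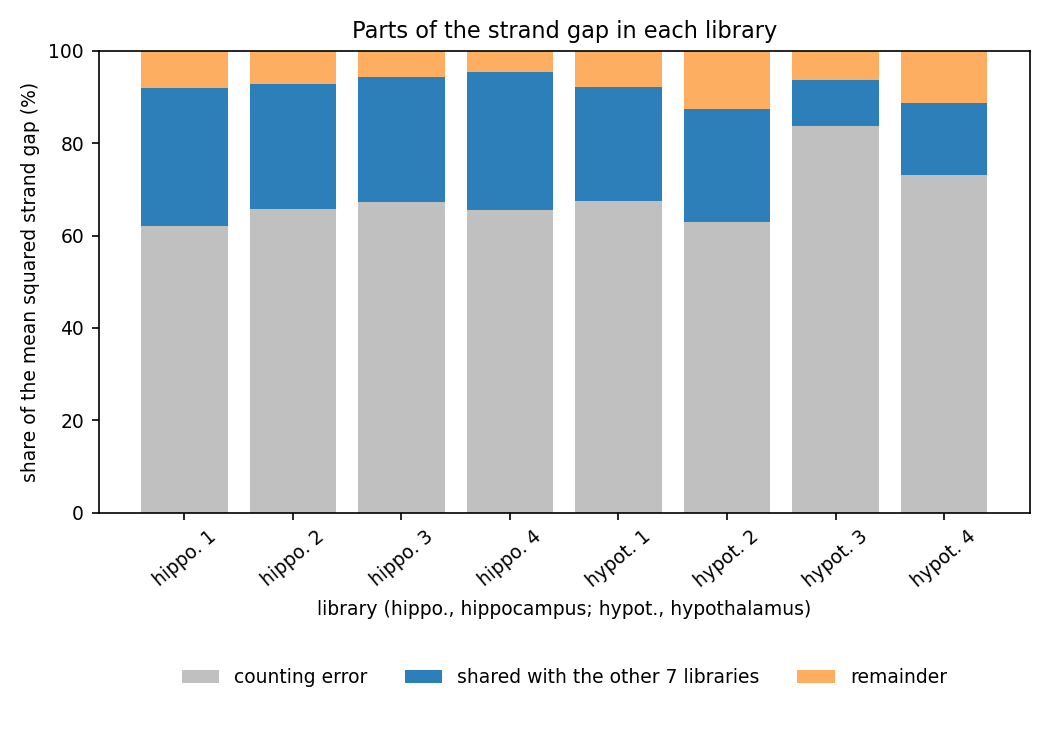
Share (%) of the mean squared strand gap over dyads in each of the 8 libraries that was counting error (grey), covariance with the other 7 libraries (blue) and remainder (orange). The blue part is 10.1% in hypothalamus 3 and 29.9% in hippocampus 4.

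The returning gap is given next by the level of methylation. The level is the mean of both strands, which caps the gap, at 10 points for a level below 5% or above 95%, so the order of the classes is in part set by their definition. Its standard deviation was 0.343 points at dyads with a mean level below 5%, 2.57 points at 5% to 20%, 5.98 points at 20% to 40% and 7.71 points at 40% to 60%. It was 5.44 points at 60% to 80%, 2.41 points at 80% to 95% and 0.604 points above 95%.

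Single dyads were tested for a strand difference with a quasi-binomial logistic model of the calls, with the library as a block and a dispersion moderated by limma. Dyads with a mean level of 5% to 95% were tested, and a call needed a mean gap of 10 points or more together with an adjusted p (Benjamini-Hochberg) under 0.05. Of 37010 dyads tested, 1178 (3.18%) were called, 596 (1.61%) with the C strand higher and 582 (1.57%) with the G strand higher. The median absolute gap of the called dyads was 13.6 points. The median level was 71.3% on the higher strand and 52.2% on the lower, each taken on its own, so that these medians do not subtract to the median gap. All 240 dyads with a mean gap of 20 points or more were among them, and 86 had 40 points or more. The threshold of 10 points fell within a dense range: 189 called dyads had gaps of 10 to 11 points, and 202 dyads with an adjusted p under 0.05 had gaps of 9 to 10 points. The count of calls was 343 among the 10406 dyads with 20 calls per strand, 419 with each dyad's own dispersion and 440 with no filter on the level.

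By level, with the same cap on the gap, the share called was 1.24% at 5% to 20%, 5.38% at 20% to 40%, 6.8% at 40% to 60%, 5.12% at 60% to 80% and 1.17% at 80% to 95%. Of the called dyads, 689 (58.5%) had the gap in one direction in all 8 libraries, against 4.03% of all tested dyads, which follows in part from calling on the mean gap. Of the called dyads, 162 (13.8%) lay within 100 bases of another called dyad, against 2.35% of the tested dyads that were not called, and the calls formed 1083 groups at that distance. Neighbours share reads, and the part of this sharing was not tested. Among the 53 tested dyads with a mean depth above 500 calls per strand, 9 were called (16.98%), and the part of read placement in these calls was not tested.

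Where a called dyad had other dyads of the set within 100 bases (641 dyads), the mean gap of these neighbours had the same direction in 68.2%, against 58.1% for tested dyads that were not called. The neighbours' gap in that direction had a median of 2.18 points, far below that of the called dyad. Over pairs of dyads the correlation of mean gaps was 0.262 at 2 to 10 bases and 0.119 at 50 to 100 bases, as a description, since neighbours share reads. Between the hippocampus gap of one dyad and the hypothalamus gap of its neighbour, which share no reads, it was 0.124 and 0.0391.

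The largest gaps joined a methylated strand with an unmethylated one. With limits of at least 80% on one strand and at most 20% on the other, 18 to 27 dyads were hemimethylated in a library, and 52 (0.0685%) in at least one. In all 8 libraries 7 were hemimethylated, 3 with the C strand high and 4 with the G strand high. This count was 18 with limits of 70% and 30%, 1 with 90% and 10%, and 3 with at least 20 calls per strand. The 29 that passed in more than 1 library kept one direction in all libraries in which they passed. Of the 23 that passed in 1 library only, 11 were from hypothalamus 3, which had the fewest calls. A gap of at least 50 points was seen at 205 dyads in at least 1 library and at 26 in all 8. Of the 205, 77 reached it in hypothalamus 3 alone, and without that library there were 128. By their means over the 8 libraries, 16 dyads were within the limits, the 7 and 9 others. A further 18 lay just outside, with means of at least 70% and at most 30%.

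Of the 7, chr2:117020646-117020647 had the G strand methylated and the C strand free. Its C strand was at 0%, 7.32%, 2.94% and 7.04% in the hippocampus libraries, in order of replicate, and at 4%, 1.35%, 0% and 2.56% in the hypothalamus libraries. On the G strand the levels were 96.9%, 90.9%, 94.5% and 96.4%, then 97.3%, 98.7%, 92.9% and 100%. The strands were separated by at least 83.6 points in every library. The mean gap was -92.8 ± 4.74 points (SD, n = 8). With 33 and 31 calls behind them, the values of 0% allow up to 9.09% and 9.68%, by counting error only.

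At chr2:180905164-180905165 the C strand had 0.893%, 0%, 3.28% and 2.94% in hippocampus and 3.7%, 0%, 9.52% and 0% in hypothalamus, and the G strand had 88.5% to 96.2%. The mean gap was -91.0 ± 5.42 points (SD, n = 8). At this dyad no cytosine was listed within 20 bases before it on either strand, which was taken as a read start on both. On the C strand a stretch without cytosines would look the same. On the G strand the window shows cytosines that were not listed, the letters g after the dyad. The remaining dyads outside element A had the C strand high, chr2:228431745-228431746 with 91.9% against 0.417% and at least 14 calls, and chr13:27399710-27399711 with 92.1% against 7.09% and at least 18 calls.

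The 5 windows of element A had the same strand higher when they were turned to read the same way, a direction that the choice of windows did not use. The printed strand had 79.6% ± 4.49 at chr13:12939904-12939905, 92.2% ± 2.63 at chr17:71592749-71592750, 92.5% ± 2.11 at chr2:210216352-210216353 and 89.9% ± 4.08 at chr11:19482568-19482569 (SD, n = 8 each). The strand opposite had 6.25% ± 3.96, 1.94% ± 2.39, 3.23% ± 2.53 and 6.75% ± 6.23 (SD, n = 8 each). At these 4 the lowest printed-strand value of a library was 74.6% and the highest opposite value 20%. The first and the last of them rested on 56 to 414 and on 18 to 77 calls. At chr18:38739709-38739710 the printed strand had 90.4% ± 3.99 and the opposite strand an intermediate 47.2% ± 12.9 (SD, n = 8 each), with as few as 10 calls in a library. The strands did not overlap there either, at 83.3% to 95.9% against 35% to 63.8%.

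At 3 of the 4 element D windows shown, the strand opposite to the printed one was higher. At chr2:117020646-117020647 above it had 95.9% ± 3.02 against 3.15% ± 2.85 on the printed strand. At chr1:131132040-131132041 the opposite strand had 97% ± 1.99 and the printed strand 50.2% ± 18.6, from 30.8% to 85.6% between libraries (SD, n = 8 each). At chr14:73954000-73954001 the values were 94.8% ± 2.91 and 51.7% ± 7.44 (SD, n = 8 each). The strands of these 3 dyads did not overlap in level, and the opposite strand was nearly fully methylated in all of them, while the printed strand ranged from free to intermediate. At the less similar chr2:6876526-6876527 the printed strand was the higher one, with 66.6% ± 13.2 against 46.8% ± 9.99 (SD, n = 8 each).

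Element A and 3 further elements were read from the windows of dyads with large gaps after their values were seen, so the shares below only describe, beside the 3.18% called and the median absolute gap of 2.36 points over all tested dyads. Each was searched on both strands within 60 bases of every dyad, fixed letters only. Element A (CGGNNCCTGNAGG) was found at 26 of the 75898 dyads (0.0343%) and at 10 of those tested, of which 6 were called, with a median absolute gap of 32.1 points. At 8 of the 10 the dyad was the CG that opens the element; 5 of these 8 were called, all with the strand that reads the element higher, and the other 3 had gaps of -1.42 to 2.26 points. Element B (GAGCCTCNGGNCCAC) was found at 105 dyads (0.138%) and 99 tested, of which 17 were called (17.2%), with a median absolute gap of 2.73 points. At the CpG that starts 7 bases before element B, a position picked from several, 5 of 17 tested dyads were called, all with the strand that reads the element higher. At the positions 38 bases and 1 base before it, the 1 called dyad of each had the opposite strand higher. At those 3 bases before and 16 bases after its start, the 1 called dyad of each had the reading strand higher. At the CpG inside it, 8 of 64 were called, 4 in each direction. Element C (GCCATGNTGGCG) was found at 143 dyads (0.188%) and 35 tested, of which 9 were called (25.7%), and at 8 of these the opposite strand was higher. The median absolute gap was 3.01 points. Element D (AGAGNCTGNNCTCTGCGCA), the sequence of chr2:117020646-117020647, was found at 34 dyads (0.0448%) and 25 tested, of which 8 were called (32.0%), 2 of them with the strand that reads the element higher, with a median absolute gap of 3.32 points. At the CpG printed in capitals, 6 of 13 tested dyads were called, 5 with the opposite strand higher. One that was not called, chr3:130808687-130808688, has the letters printed for chr14:73954000-73954001 and a gap of 1.16 points on the strand that reads them minus the other, where that of chr14:73954000-73954001 was -43.1 points. Of the 86 called dyads with gaps of 40 points or more, 5 held element A, 8 element B, 4 element C and 2 element D. The medians of elements B, C and D thus lay near that of all tested dyads. That of element A lay above it, but its 10 tested dyads include the windows shown on chromosomes 11, 13, 17 and 18. At its other tested dyads the reading strand minus the other was 71.3, 20.8, 5.85, 2.26, -1.42 and -0.475 points.

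Among dyads called with one direction in all 8 libraries and at least 20 calls per strand, chr4:244312887-244312888 had the largest gap toward the C strand. Its C strand had 85.9%, 87.8%, 91.5% and 96.3% in hippocampus and 89.9%, 88.9%, 79.2% and 93.9% in hypothalamus, and its G strand at most 0.457%. The gap was 89.0 ± 5.31 points (SD, n = 8). The strands were read very unequally here, with 24 to 190 calls on the C strand and 219 to 1785 on the G strand. In the printed window the letters gctcacagtg stand both before and directly after the dyad. The part of repeated sequence in this gap was not tested.

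At chr17:31983677-31983678 the C strand had 72.0% to 84.1% and the G strand was at 0% in 7 libraries and at 3.77% in hypothalamus 4, a gap of 78.5 ± 3.33 points (SD, n = 8). The zeros, from 24 to 117 calls, allow 2.56% to 12.5%. At chr5:158700813-158700814 the C strand had 83.3% to 90% and the G strand 5.56% to 29.8%, a gap of 74.6 ± 8.97 points (SD, n = 8). Hypothalamus 4, with 29.8% on the G strand from 57 calls, had the smallest gap there, 55.2 points. At chr1:56861746-56861747 the G strand had 88.0% to 93.5% and the C strand 21.7% to 35.2%, a gap of -63.3 ± 5.65 points (SD, n = 8). The depth of its G strand was 0.319 times that of the cytosines within 10 bases on the same strand. Each of the dyads named for its gap passed the strand test with an adjusted p of 9.98e-147 or less (limma-moderated quasi-binomial F test), a value that rests on the model and not on the 8 libraries alone. With no filter on the level, the adjusted p of these dyads was 2.12e-11 to 9.41e-08 in the same test. With each dyad's own dispersion it was 1.49e-06 to 0.000164 (quasi-binomial F test).

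The depth of each strand was set against its flanking cytosines in this way at all dyads. A depth under 0.8 times that of the flanking cytosines was found on the higher strand at 1.58% of called dyads, at 7.59% of those with gaps of 20 points or more and at 0.0554% of tested dyads not called. On the lower strand the shares were 0.451%, 1.72% and 0.0411%. The median ratio was 1 on both strands of the called dyads. Genotypes were not measured, and their part in the gaps was not tested.

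**Figure D3:**
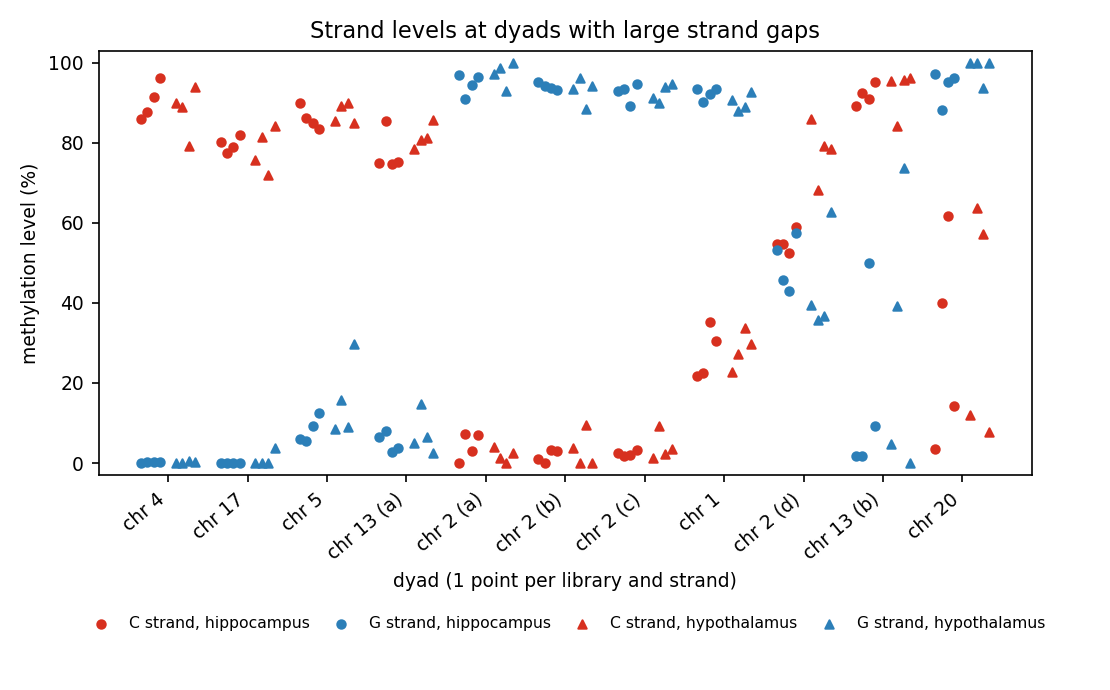
Methylation level (%) of the C strand (red) and the G strand (blue) in each hippocampus (circles) and hypothalamus (triangles) library at 11 dyads, labelled by chromosome. From the left, 4 have the C strand and 4 the G strand higher in all libraries, chr 2 (d) is chr2:6876526-6876527, where the gap is 5.36 points in hippocampus and 34.3 in hypothalamus, and chr 13 (b) and chr 20 have low strands that vary between libraries.

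Of the dyads tested, 1 was called for a strand gap that differed between the tissues. A strand-by-tissue term in the same model gave 1 called dyad of 37010 (0.0027%), where the gaps had to differ by 10 points or more with adjusted p under 0.05. At an unadjusted p under 0.05 there were 1922 dyads (5.19%), and 3 had an adjusted p under 0.05. The count was 6 in a weighted linear model of the gap and 6 with the replicate block. It was 5 without hypothalamus 4, 3 without hippocampus 4 or hypothalamus 1, and 2 without hippocampus 2 or hypothalamus 2, and the dyad described next was among the calls in each of these. All 1178 dyads called by strand had the gap in the same direction in the means of both tissues, against 58.6% of tested dyads, where calling on the mean of all 8 libraries favours this. Their tissue means differed by a median of 5.09 points, by 10 points or more at 221 and by 20 or more at 20. In the scatter of tissue means the called dyads follow the line of equality to its ends.

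**Figure D4:**
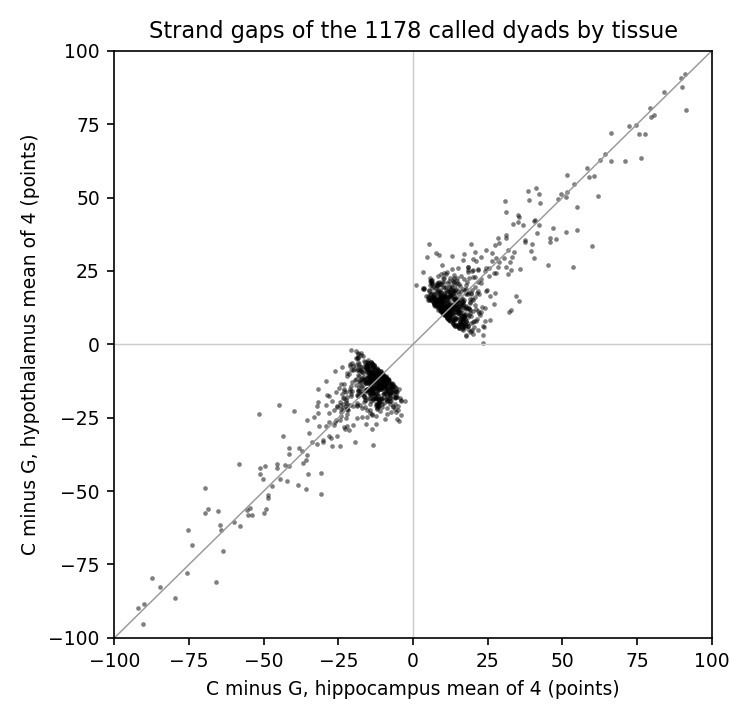
Mean strand gap (C minus G, percentage points) in 4 hippocampus libraries (x axis) against 4 hypothalamus libraries (y axis) for the 1178 dyads called by strand, with the line of equality in grey. Dyads with a mean gap under 10 points are left out by the call, and every point has the same sign in both tissues.

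The called dyad was chr2:6876526-6876527. Its C strand had 54.7%, 54.8%, 52.4% and 59.1% in hippocampus and 86.0%, 68.3%, 79.2% and 78.6% in hypothalamus. Its G strand had 53.3%, 45.8%, 43.1% and 57.4% in hippocampus and 39.6%, 35.8%, 36.8% and 62.8% in hypothalamus. The tissues did not overlap on the C strand and overlapped on the G strand. The gap was 5.36 points in hippocampus and 34.3 points in hypothalamus, so the gaps differed by 28.9 ± 7.17 points (SE; adjusted p = 4.47e-07, quasi-binomial F test moderated by limma). The call was lost with the dispersion of each dyad alone (adjusted p = 0.979) and with no filter on the level (adjusted p = 0.960). From hippocampus to hypothalamus the mean level changed by 22.8 points on the C strand and by -6.14 points on the G strand. With the calls of both strands added the tissues differed by 5.87 points (adjusted p = 0.654, same test).

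Tissue differences themselves were seen on both strands. The tissue test was fitted to all 428183 testable dyads, with the calls of both strands added, and called 9.90% of them under the same limits of 10 points and an adjusted p of 0.05 (8.65% higher in hypothalamus). Of the dyads read on both strands 5192 of 37022 (14.0%) were called, 4569 of them higher in hypothalamus and 623 higher in hippocampus, a direction called at 1.24% of all dyads. With each dyad's own dispersion 2059 (5.56%) were called, against 2.99% of all dyads. With a minimum of 20 points the count was 1682 (4.54%), against 4.72% of all dyads. With each strand tested alone among all positions of that strand, 3937 of 36785 (10.7%) were called on the C strand, against 9.47% of all C-strand positions, and 3926 of 36823 (10.7%) on the G strand, against 9.48%. Tested strand by strand, the shares thus lay near the background.

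Of the 5192, 5189 had the difference in one direction on both strands, against 70.6% of tested dyads, where calling on the added strands favours this. Of the same 5192, 2489 were called on each strand alone, 2106 on one and 597 on neither. The strands' tissue differences were apart by a median of 4.30 points where the differences themselves had medians of 17.2 points on either strand. Hippocampus and hypothalamus values were fully apart on each strand at 2299 of the dyads higher in hypothalamus and 214 of those higher in hippocampus. Over all 37022 tested dyads this held at 2495 (6.74%) and 264 (0.713%), and among the 31830 not called at 196 and 50.

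At chr7:32071508-32071509, named for the largest difference of this kind, the C strand had 31.9%, 18.8%, 38.1% and 24.3% in hippocampus and 87.2%, 81.2%, 75% and 91.4% in hypothalamus. The G strand had 28.6%, 21.6%, 48.0% and 39.1%, then 84.6%, 87.9%, 100% and 85.2%. The rise was 55.4 points on the C strand and 55.1 points on the G strand (adjusted p = 2.29e-07 for the added calls, limma-moderated quasi-binomial F test). At chr1:190780864-190780865 it was 54.1 and 48.3 points. Toward hippocampus, chr3:176622673-176622674 fell by 48.2 points on the C strand and by 47.3 points on the G strand in hypothalamus, and chr8:49133523-49133524 fell by 38.8 and by 41.0 points. At each of these dyads the strands gave the same tissue difference within 5.74 points.

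The bases beside the CpG went with small strand differences. Both neighbouring bases were fixed by the files at 34542 dyads (45.5%), and for 27408 the neighbours read differently on the strands, which makes 6 pairs of strands. These comparisons were added after the data were seen, with p-values adjusted over the 6. An A or T beside the CpG was fixed only where a listed cytosine of either strand lay directly beyond it. TCGC thus stands for CTCGC, ACGC for CACGC and TCGT for CTCGTG, and the other pairs with A or T are limited likewise. No base beside the read-start dyads described below was fixed, so those dyads are not in these comparisons. Strands reading TCGC had a higher level than the opposite GCGA in 8 of 8 libraries, by 0.762 ± 0.220 points (SD, n = 8 libraries, 2638 dyads). In hippocampus 1 to 4 the levels were 29.5%, 28.9%, 31.0% and 31.3% for TCGC and 28.8%, 28.4%, 30.3% and 30.5% for GCGA. In hypothalamus 1 to 4 they were 31.5%, 30.3%, 30.7% and 32.6% for TCGC and 30.8%, 29.6%, 30.02% and 31.4% for GCGA. Within a library the first strand was the higher one, although libraries overlap in level.

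The strand reading ACGC lay above GCGT by 0.758 points, TCGT above ACGA by 0.692 points and CCGC above GCGG by 0.217 points, each in 8 of 8 libraries. Each of the 4 had an adjusted p = 0.0117 by the two-sided exact sign-flip permutation test, whose smallest unadjusted p is 0.00781. All libraries measured the same dyads, so this p holds the spread between libraries and not the spread over dyads. With 20 calls per strand TCGT minus ACGA fell to 0.347 points and lost its call (unadjusted p = 0.0625, exact sign-flip test). The remaining pairs were not called: TCGG minus CCGA was 0.0414 points (adjusted p = 0.367, exact sign-flip test) and ACGG minus CCGT was 0.100 points (adjusted p = 0.197, exact sign-flip test). With 20 calls per strand the first of these was 0.142 points (unadjusted p = 0.0156, exact sign-flip test) and the second -0.0997 points. Among dyads with a mean level of 5% to 95% the 4 called differences were 1.74, 1.36, 0.975 and 0.618 points. In each of the 4 the sign was the same whether the first strand was the C or the G strand of the reference. In 3 of the 4 pairs the lower strand had a G in front of the CpG.

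Position in the read was compared next. The 12653 dyads with no cytosine listed within 20 bases before them on either strand were taken to lie where reads start. They had a mean absolute gap of 10.2 points at 10 calls against 7.34 points at the other 63245. The excess of 2.88 points was seen in 8 of 8 libraries (exact sign-flip test, adjusted p = 0.0117 over 3 relations). It went with the level, since 68.2% of the first and 44.9% of the others had a mean level of 5% to 95%, and within that range the difference was -0.0703 points. With all calls the excess was 1.76 points. By strand call, 2.23% of tested read-start dyads and 3.47% of the others were called. The strand with the nearer read start was 0.0216 points above the other (56015 dyads, exact sign-flip test, adjusted p = 0.172). Only 32 dyads could be placed inside CCGG by their listed outer bases, and their absolute gap was lower by 1.96 points (exact sign-flip test, adjusted p = 0.0117). The difference turned to 0.889 points within a level of 5% to 95% and to 0.0161 points with all calls. The p-values of this paragraph too leave out the spread over dyads.

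Some large gaps varied between libraries of one tissue. For this the 107 called dyads with a gap of at least 50 points in some but not all libraries were taken. This choice itself favours variation, since counting error can carry a steady gap near 50 points across the limit. The part of counting error was not tested. The gaps of hippocampus 1 and hypothalamus 1 differed by a mean of 10.5 points and those of hippocampus 4 and hypothalamus 4 by 12.7 points. By the mean these were the closest of the 28 pairs of libraries, and the other pairs differed by 13.6 to 24.8 points. The same-numbered pairs of replicates 2 and 3 lay within that range, at 16.3 and 20.5 points. Pairs with hypothalamus 3, the shallowest library, differed by 18.6 to 24.8 points, and pairs without it by up to 22.3 points. By the median the replicate 1 pair was still the closest (6.85 points), but the replicate 4 pair (9.61 points) lay behind pairs within hippocampus at 7.86 to 9.20 points. At chr13:94790173-94790174, chosen after its values were seen, the G strand had 1.64%, 1.82%, 50% and 9.38% in hippocampus and 4.76%, 39.3%, 73.7% and 0% in hypothalamus, while the C strand stayed at 84.1% to 96.2%. The calls on the G strand were 144 against 55 on the C strand in hippocampus 3 and 168 against 63 in hypothalamus 2, but 19 against 23 in hypothalamus 3, where the G-strand level was highest. At chr20:42616472-42616473, chosen likewise, the C strand had 3.57%, 40%, 61.7% and 14.3% in hippocampus and 12%, 63.8%, 57.1% and 7.69% in hypothalamus, with the G strand at 88.1% to 100%. At both dyads replicates 1 and 4 of either tissue had gaps of 82.0 to 96.2 points in size, and the low strand was higher in some or all of the other libraries. The genotypes of the animals were not measured.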

How the data were processed

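RRBS was measured in 4 hippocampus and 4 hypothalamus libraries from DHA-fed male rats. Per the labels' protocols, DNA was cut with MspI, fragments of 150 to 300 bases were kept, treated with bisulfite and sequenced on an Illumina instrument. Bowtie and the build rn5 are named in the submitters' processing notes. No source used here names the methylation caller, the trimming or the handling of duplicate reads. For each listed cytosine of either strand the authors deposited 2 counts, the methylated calls and the total. The authors' fraction, which is the ratio of these, entered no test. No listed position had under 10 calls, and a library held 175601215 to 615643797 calls on chromosomes 1 to 20, fewest in hypothalamus 3 and 4. Median calls per strand at the dyads were 19 and 40 in these and 66 to 85 in the other 6. Calls are not independent molecules, so counting errors and floors (3 calls over the total) are lower limits. Pairs of libraries had identical counts at 0.00461% to 0.727% of the dyads' positions.

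From these counts, dyads were tested with quasi-binomial logistic models (Python 3.11.15, numpy 2.4.6, scipy 1.17.1), with dispersions moderated by limma 3.58.1 in R 4.3.3 and kept at 1 or more. Adjusted p-values are Benjamini-Hochberg values over all features tested with a mean level of 5% to 95%. Values per library were compared by exact sign flips (256) or exact permutation of 4 against 4 libraries (70). The fits were also run on simulated calls with the real depths and a fixed spread. Only dyads of intermediate level were changed there, so low and high levels were not covered, and the outcome is not given here.

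The dyads named were those with the largest gaps in either direction (one direction in all 8 libraries, 20 calls per strand, 1000 bases apart), those called for strand by tissue, the 2 deepest with both strands at 40% to 60%, the largest tissue differences without overlap on either strand, and the 3 deepest hemimethylated in all libraries. A pair of further dyads and the 4 elements, read from windows of called dyads, were chosen after their values were seen. Windows were grouped with those of the first element A or element D dyad where a called gap was at least 40 points (or was called by tissue) and at least 20 letters, and 85% of those fixed in both, were identical in either orientation. The members and lists were chosen with earlier results of these data known. As the outer cytosines of CCGG were hardly ever listed, the planned comparison of CCGG dyads held 32 dyads, and a comparison by read starts was added. Windows were rebuilt from the rows' letters and contexts, with 0 conflicts among 157646291 repeated bases. The tissue labels were not checked against marker genes, as the rows name no genes.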

Additional observations from a re-analysis of the deposited data

Results flagged for a closer look

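At chr13:94790173-94790174 the gap of hippocampus 3 was 40.9 points, far from the other 3 hippocampus libraries, which had 85.9 to 90.6 points. At chr2:210216352-210216353 the gap of hypothalamus 2 was -80.7 points, where the other hypothalamus libraries had -91.5 to -90.1 points. Its C strand had 9.17% from 240 calls, the most calls of any library at this dyad, and the part of this depth was not tested. In the comparison by flanking bases, TCGC minus GCGA was 1.29 points in hypothalamus 4 and 0.683 to 0.725 points in the other hypothalamus libraries. For TCGG minus CCGA, hypothalamus 4 had 0.293 points and the other 3 had -0.0249 to 0.0282 points. For ACGC minus GCGT, hypothalamus 1 had 0.771 points and the other 3 had 0.639 to 0.654 points. Hypothalamus 4 was the second shallowest library, with a median of 40 calls per strand. Among 54 groups of 4 values examined for a library far from the other 3, 5 passed, and about 1 in 20, here 2.7, passes by chance. The groups include dyads chosen after their values were seen, such as chr13:94790173-94790174, so the count cannot be weighed against that number.

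At chr2:6876526-6876527 the strand gap differed between the tissues by 28.9 points in the strand-by-tissue test, with 5.36 points in hippocampus and 34.3 points in hypothalamus.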

How the results depend on the processing

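The direction of the mean C minus G difference had no stable sign, as its main value was near 0. It was -0.0216 points with 20 calls per strand (exact sign-flip test, unadjusted p = 0.0313) and 0.154 points with calls summed over dyads (unadjusted p = 0.0156, exact sign-flip test). It was 0.00921 points at levels of 5% to 95%, 2.72e-05 outside CCGG, 0.00128 with replicates 1 and 4 averaged over tissues and 0.00554 for dyads inside the read. Without 1 library each it was -0.00492 to 0.00471 points. The absolute gap between tissues was 0.938 points with all calls and 0.0118 points at 5% to 95%, and -0.524 to -0.0705 without 1 library each.

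The number of dyads called by strand was 343 with 20 calls per strand (fewer dyads tested), 240 with a minimum of 20 points, 419 with each dyad's own dispersion and 440 with no filter on the level, where the cause was not tested. It was 1061 to 1182 without 1 library each, of which 963 to 1014 were among the 1178 of the main setting. Of the 343, 419 and 440, 340, 416 and 440 were among the 1178. The strand-by-tissue count was 0 with own dispersions, 0 without the filter on the level and 6 in a weighted linear model of the gap, of which 1 was the dyad named. Without 1 library each it was 1 to 5, and 5 without hypothalamus 4. The named dyad kept 24.9 to 35.1 points without 1 library each.

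Dyads hemimethylated in all 8 libraries numbered 1 with limits of 90% and 10%, 18 with 70% and 30%, and 3 with 20 calls per strand. Without 1 library each they numbered 7 to 9. The mean correlation of gaps over pairs of libraries was 0.289 with 20 calls per strand, 0.0708 without called dyads, and 0.219 to 0.253 without 1 library each.

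CCGG minus other dyads turned to 0.889 points at 5% to 95% and to 0.0161 points with all calls, and was -2.14 to -1.78 without 1 library each. The read-start excess turned to -0.0703 points at 5% to 95%, was 1.76 with all calls, and was 2.84 to 2.92 without 1 library each. By flanking bases with 20 calls per strand, TCGG minus CCGA was 0.142 points, TCGT minus ACGA fell to 0.347 points (unadjusted p = 0.0625, exact sign-flip test) and ACGG minus CCGT turned to -0.0997 points. Without called dyads ACGG minus CCGT was -0.0203 points. Without 1 library each it was 0.0608 to 0.143, with the highest value without hypothalamus 4. The 4 called differences kept their call under each library left out, at 0.205 to 0.789 points, and TCGG minus CCGA, not called, was 0.00557 to 0.0616 points.

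Members called between tissues numbered 2059 with own dispersions (5.56% of members, 2.99% of all dyads) and 1682 with a minimum of 20 points (4.54% and 4.72%). Without 1 library each they numbered 4116 to 5557 (11.2% to 15.025% of members, 7.21% to 10.5% of all dyads). Of 134 values of dyads named for their gaps and 44 of those named for tissue, none changed its call. These dyads were chosen for the largest differences, far above the limits, so this says nothing of the other calls.

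The level deviations of same-numbered libraries had correlations of 0.309, 0.0518, 0.0827 and 0.310 for replicates 1 to 4. For the deviations of the strand gap they were 0.0259, 0.00989, 0.0130 and 0.00697. By both, each hippocampus library correlated best with the hypothalamus library of its own number. The labels do not say whether such libraries share an animal. With the replicate block 6 dyads were called for strand by tissue and 6264 members between tissues (16.9%, against 12.5% of all dyads), and the absolute gap between tissues had the same -0.297 points (p = 0.500, exact sign flips of 4 differences, smallest possible p = 0.125).

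Depth limited the hypothalamus libraries 3 and 4 most, and 54595 dyads had fewer than 20 calls on a strand in some library.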

Other observations

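Adding the strands of a dyad, which is common where CpGs are analysed as single sites, assumes that they are equal. At chr2:117020646-117020647 the tissues differed by -15.2 points on added calls (limma-moderated quasi-binomial F test, adjusted p = 0.0362), and by -2.35 points on the C strand and 2.53 points on the G strand. The unmethylated C strand held 39.2% of the calls in hippocampus and 55.8% in hypothalamus. At chr14:92490577-92490578, with a mean gap of -31.3 points, the added calls differed by -13.7 points (adjusted p = 0.0140, same test), and the strands by -2.56 and -0.272 points. The C strand there held 54.3% of the calls in hippocampus and 72.4% in hypothalamus. Of the 5192 dyads called between tissues, 5 had differences under 10 points on both strands, and these were 2 of them.

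Within element B on chromosome 5, neighbouring dyads had gaps in opposite directions. At chr5:124821368-124821369 the strand that reads the element was at 0% and the opposite strand at 76.9%, and 7 bases further on, at chr5:124821375-124821376, the levels were 86.5% and 44.8%. These dyads were picked after their values were seen.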
